A study of Homo sapiens with 12 samples.

Results

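The gene NFE2L2, which encodes the transcription factor NRF2, was followed together with its inhibitor KEAP1 and 8 genes of the glutathione and thioredoxin systems that NRF2 is known to drive: GCLM, GCLC, NQO1, SRXN1, TXNRD1, TXN, GSR and PRDX1. The members were taken by name, so that 10 of the 14866 genes listed in every library were chosen, and all 10 were among the 13502 genes tested. RNA was sequenced from SHI-1 cells, an established acute myeloid leukaemia (AML) line carrying the MLL-AF6 fusion, to ask whether combining a pair of drugs that deplete MLL-fusion proteins changes transcription more than either drug alone. The cells were treated for 16 h in 4 groups, each with 3 libraries from independent experiments. The 4 groups were DMSO, the solvent control; DSF, which is 0.3 µM disulfiram with 1 µM copper; NSM, which is 5 µM niclosamide; and DSF+NSM, which is both. Neither the labels nor the methods say whether the DMSO and NSM cultures also received copper.

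In resting cells KEAP1 holds NRF2 in a complex with the ubiquitin ligase CUL3, and NRF2 is degraded. When electrophiles or oxidants modify cysteines of KEAP1, NRF2 accumulates, pairs with a small MAF protein and binds antioxidant response elements (AREs) near its target genes. Those targets make and reduce glutathione, the main small thiol of the cell, and reduce thioredoxin, the small protein that hands electrons to peroxiredoxins.

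Of the 8 members with a RefSeq promoter window (GRCh38, 11 start sites, with PRDX1 and GSR not analysed), 6 held the ARE core TGACNNNGC on either strand within 1000 bases before a start. Counted by start site, the core was present before 7 of these 11, and before 31.9% of all 35116 RefSeq starts. The longer form TGACTCAGC, which contains the AP-1 motif TGACTCA, stood before 1.42% of starts, and among the members before NQO1 alone. The matches nearest to the start sites are printed, so that members can be set side by side; only matches that end before the start were taken, and they stand on the strand of the gene, with 10 bases on either side and the match in capitals. SRXN1 is shown with its AP-1 match because the ARE core, searched only as TGACNNNGC, was not found in its window. Its printed letters TGAGTCAGC differ from that form only by G in place of C. Forms with that G were not searched, so AP-1 only refers to the forms searched.
GCLM, chr1:93909446-93909474, 34 to 26 bases before the start: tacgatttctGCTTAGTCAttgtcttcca
KEAP1, second start, chr19:10502784-10502812, 31 to 23 bases before it: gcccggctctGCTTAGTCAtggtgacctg
NQO1, chr16:69726997-69727025, 455 to 447 bases before the start: gcagtcacagTGACTCAGCagaatctgag
TXNRD1, first start, chr12:104215670-104215698, 99 to 91 bases before it: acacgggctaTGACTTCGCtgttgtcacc
TXNRD1, second start, chr12:104286920-104286948, 102 to 94 bases before it: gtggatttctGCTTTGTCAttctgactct
SRXN1, AP-1 only, chr20:653456-653482, 272 to 266 bases before the start: aaactcacccTGAGTCAgcccgcccgg

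GCLM and KEAP1 carried the same core, TGACTAAGC when read on the other strand, and GCLM changed with the drug pair and KEAP1 did not pass the test in the fit over all 12 libraries. A further match for TXNRD1, GCTCCGTCA at chr12:104215771-104215779, spans its first start and was not counted. GCLC and TXN had a core farther out, 870 to 862 and 581 to 573 bases before their starts. A match describes letters and is not a binding site.

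Values are the authors' normalized counts per gene. In each library 15.3% to 32.7% of the nonzero values were whole multiples of 1 step. Division of whole reads by 1 factor per library was therefore not shown. Sums of the values per library, with M for mega, were 14.0 to 14.4 M for DMSO and 14.9 to 15.3 M for DSF. They were 16.5 to 17.5 M for NSM and 22.7 to 25.6 M for DSF+NSM. The estimate of 10.2 to 19.0 M reads per library rests on that step and is uncertain. Scaling every library to the same sum instead lowered the median log2 change of all genes to -0.75 for DSF+NSM against DMSO, -0.68 against DSF and -0.48 against NSM, so the direction of a small change in DSF+NSM depends on the scaling. NSM replicate 3 stood apart from its group, with Spearman correlations of 0.952 and 0.959 over all listed genes where the pairs within the other 3 groups reached at least 0.981. All 11 myeloid markers were listed, with a summed level of 67370 to 76630 in DMSO and 34732 to 35994 in DSF+NSM, while the B cell, T cell, epithelial and fibroblast markers summed to at most 659 in any library and no erythroid marker was listed. MPO alone ran from 14453 to 62640 over the libraries, so the myeloid sum does not show whether the other markers were lower. In bulk RNA, fewer cells of a type and less RNA per cell cannot be told apart, and the part of the lower myeloid sum in the results was not tested.

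Changes are log2 fold changes of the normalized count plus 1, with standard errors (SE), from 1 limma fit over all 12 libraries, and adjusted p-values are Benjamini-Hochberg values over all 13502 genes. With DSF, 4 of the 10 members passed an adjusted p of 0.05, against 17.8% of all genes: SRXN1, NQO1 and GSR rose, as did 11.9% of all genes, and TXN fell, as did 5.95%. With NSM, 6 members passed, against 49.1% of all genes: NFE2L2 and GSR rose, as did 25.4% of all genes, and NQO1, TXNRD1, TXN and PRDX1 fell, as did 23.7%. With DSF+NSM, 9 members passed, against 52.8% of all genes: 8 rose, where 28.3% of all genes did, TXN fell, as did 24.5%, and KEAP1 did not pass. With 1 library left out the last count ran from 6 to 9, where 44.3% to 67.7% of all genes were called. With every library scaled to the same sum that count became 5, namely SRXN1, GCLM and GSR higher and KEAP1 and TXN lower. In that scaling 67.5% of all genes were called, and of those called 16.7% were higher. The treated libraries did not overlap the DMSO libraries for 7 members with DSF (60.9% of all genes), 5 with NSM (57.0%) and 8 with DSF+NSM (69.3%), so that lack of overlap was common throughout.

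**Figure D1:**
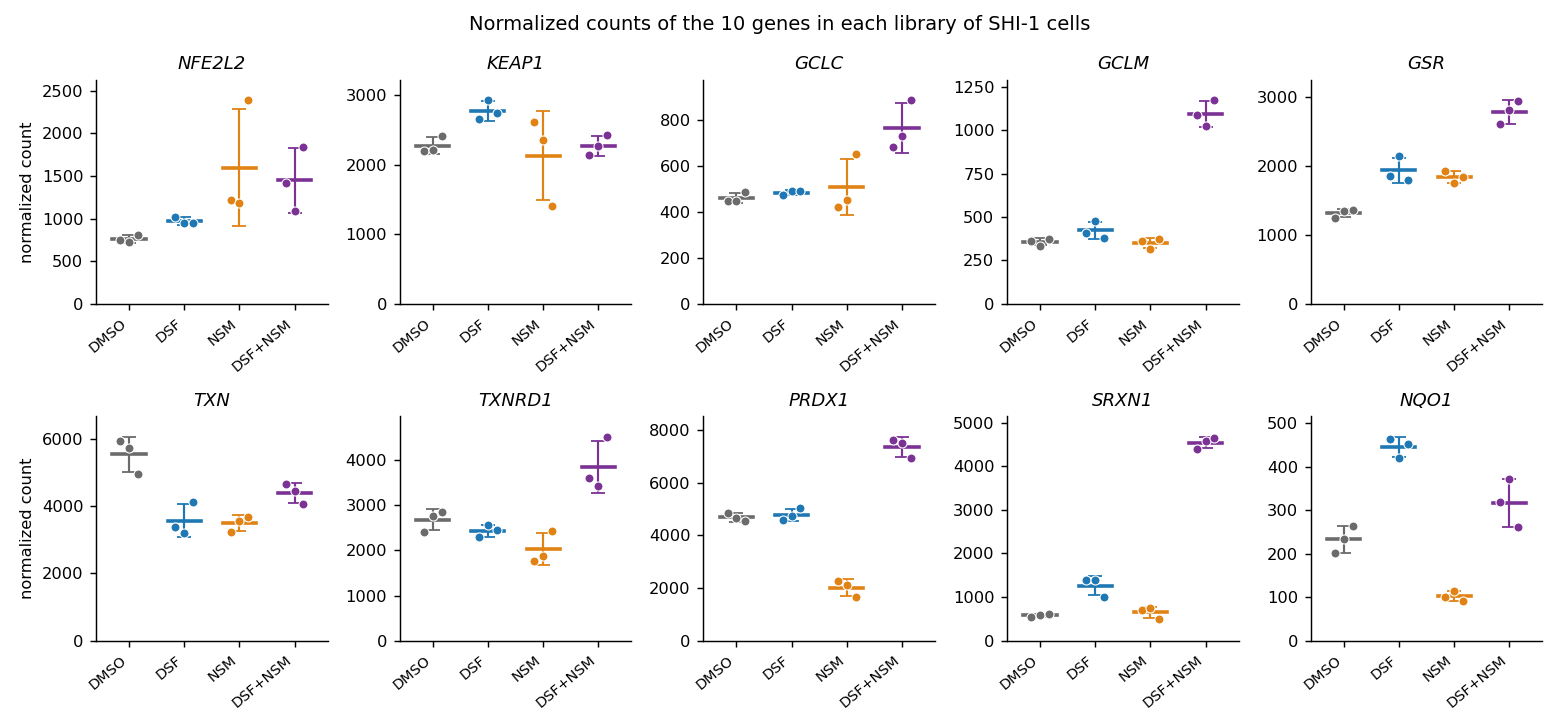
Normalized count (y axis, from 0) of each of the 10 genes in every library, by treatment group (x axis); points are libraries, wide lines group means and error bars the SD of 3 libraries. SRXN1, GCLM and PRDX1 sit highest in the 3 DSF+NSM libraries, and NSM replicate 3 is the high NFE2L2 point and the low KEAP1 point of its group; with equal sums PRDX1 in DSF+NSM is at -0.13 (log2) from DMSO.

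NFE2L2 (chr2:177218667-177392756, minus strand) encodes NRF2 itself. It stood at 749, 728 and 811 normalized counts in DMSO, at 1022, 952 and 946 in DSF, at 1224, 1185 and 2390.0 in NSM, and at 1416, 1089 and 1840.3 in DSF+NSM. All treated libraries lay above all DMSO libraries. NFE2L2 rose by 0.99 ± 0.25 (SE, adjusted p = 0.00554) with NSM and by 0.89 ± 0.25 (adjusted p = 0.00895) with DSF+NSM, and the change of 0.35 ± 0.25 with DSF did not pass (adjusted p = 0.352), although it did when only the DSF and DMSO libraries were fitted (adjusted p = 0.000819) and with library weights (0.39, adjusted p = 0.000304). NSM replicate 3 held 1.98 times the mean of the other 2 NSM libraries, and without it the change with NSM was 0.66 (adjusted p = 0.00202). The change with DSF+NSM was 0.11 (adjusted p = 0.721) with equal sums. Exons of NFE2L2 share 3509 bases with the exons of HNRNPA3 on the opposite strand, and the library kit does not mark strand, so reads from that stretch cannot be assigned to one of them.

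KEAP1 (chr19:10486125-10503558, minus strand), the adaptor that sends NRF2 for degradation, held 2195, 2218 and 2411 normalized counts in DMSO and 2653, 2931 and 2741 in DSF. It held 2622, 2362 and 1405 in NSM and 2138, 2270.3 and 2425 in DSF+NSM. The DSF libraries lay above the DMSO libraries, and the other treated groups overlapped DMSO. In the fit over all 12 libraries no change of KEAP1 from DMSO passed the test, at 0.29 ± 0.19 (adjusted p = 0.316) with DSF, -0.14 ± 0.19 (adjusted p = 0.550) with NSM and 0.00 ± 0.19 (adjusted p = 0.996) with DSF+NSM, and its interval with DSF+NSM ran from -0.41 to 0.41. With equal sums KEAP1 was lower by 0.78 (adjusted p = 0.00375) in DSF+NSM, which is about the shift of the median gene. NSM replicate 3 again stood apart, at 0.564 times the mean of the other 2, and without it the change with NSM was 0.13 (adjusted p = 0.239). The change of 0.29 with DSF passed without that library (adjusted p = 0.0125), when only the DSF and DMSO libraries were fitted (adjusted p = 0.00176) and with library weights (adjusted p = 0.000246).

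GCLC and GCLM encode the catalytic and modifier subunits of glutamate-cysteine ligase, the rate-limiting enzyme of glutathione synthesis. GCLM (chr1:93885199-93909456, minus strand) was measured at 364, 334 and 376 normalized counts in DMSO, 410.3, 479 and 381 in DSF, 363, 319 and 375 in NSM, and 1087, 1022 and 1173 in DSF+NSM. The 3 DSF+NSM libraries stood far above the other 9, whose highest value was 479. GCLM rose by 1.61 ± 0.14 (adjusted p = 1.5e-06) with the pair, a 3.05-fold difference, and was higher by 0.83 (adjusted p = 0.000304) with equal sums. Its changes with DSF, 0.24 ± 0.14 (adjusted p = 0.257), and with NSM, -0.02 ± 0.14 (adjusted p = 0.895), did not pass.

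GCLC (chr6:53497341-53616970, minus strand) moved less. It stood at 449, 445 and 487 in DMSO, 472, 489.9 and 490.0 in DSF, 423, 452 and 649.9 in NSM, and 681, 728 and 885 normalized counts in DSF+NSM. Each DSF+NSM library exceeded every other library, the closest being NSM replicate 3. GCLC rose by 0.72 ± 0.17 (adjusted p = 0.00327) with DSF+NSM, but with equal sums the difference was -0.06 (adjusted p = 0.786). The changes with DSF and NSM were 0.07 ± 0.17 (adjusted p = 0.804) and 0.12 ± 0.17 (adjusted p = 0.593). The ratio of GCLM to GCLC within a library, which no scaling between libraries can alter, was 0.750 to 0.811 for DMSO, 0.778 to 0.977 for DSF, 0.577 to 0.859 for NSM and 1.32 to 1.60 for DSF+NSM. GCLM thus changed more than GCLC in the drug pair, with no overlap between DSF+NSM and the other groups.

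GSR encodes glutathione reductase, which returns oxidized glutathione to its reduced form with NADPH. It held 1248, 1342 and 1364 normalized counts in DMSO, 1863, 2147 and 1801 in DSF, 1928, 1756 and 1837 in NSM, and 2605, 2822 and 2939.6 in DSF+NSM. The levels formed 3 steps, with DMSO lowest, both single drugs together in the middle and DSF+NSM highest. GSR rose by 0.55 ± 0.11 (adjusted p = 0.00566) with DSF, 0.48 ± 0.11 (adjusted p = 0.00338) with NSM and 1.08 ± 0.11 (adjusted p = 6.61e-06) with both, and DSF and NSM differed by 0.07 (95% interval -0.17 to 0.31). With equal sums the rise was 0.30 (adjusted p = 0.0421) with both drugs and 0.21 (adjusted p = 0.156) with NSM.

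TXN encodes thioredoxin 1. On normalized counts divided by the length of the main transcript, TXN and PRDX1 were the highest of the 10 in DMSO, at 7506 ± 708 and 4950 ± 173 (SD, n = 3) per kilobase, followed by KEAP1 at 887 ± 46.2 and TXNRD1 at 694 ± 60.1, while NQO1 and GCLM were lowest, at 92.2 ± 12.3 and 73.3 ± 4.41. TXN (chr9:110243810-110256507, minus strand) was measured at 5943, 5708 and 4945 normalized counts in DMSO, 3362, 3194 and 4127 in DSF, 3219.9, 3565 and 3666 in NSM, and 4664, 4439.7 and 4065 in DSF+NSM. All treated libraries lay below DMSO, and the pair had a higher mean than either single drug, with DSF replicate 3 inside its range. TXN fell by 0.64 ± 0.13 (adjusted p = 0.00505) with DSF and by 0.66 ± 0.13 (adjusted p = 0.000945) with NSM. The difference of -0.33 ± 0.13 with DSF+NSM passed narrowly (adjusted p = 0.0424) and lost its call without DMSO replicate 1 or 2, DSF replicate 1, NSM replicate 2 or any DSF+NSM library (adjusted p = 0.0517 to 0.144). With equal sums it was -1.12 (adjusted p = 7.31e-06).

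TXNRD1 (chr12:104215779-104350307, plus strand) encodes the selenoenzyme that reduces thioredoxin. Its values were 2416, 2775 and 2850.5 in DMSO, 2298, 2558 and 2459.9 in DSF, 1773, 1878 and 2441 in NSM, and 3614, 3429 and 4522 normalized counts in DSF+NSM. The DSF+NSM libraries lay above all others, and one NSM library reached into the DMSO range. TXNRD1 changed by -0.13 ± 0.15 (adjusted p = 0.572) with DSF, by -0.41 ± 0.15 (adjusted p = 0.0353) with NSM and by 0.52 ± 0.15 (adjusted p = 0.0106) with both. The fall with NSM lost its call when DMSO replicate 2 or 3 or NSM replicate 1 or 2 was left out (adjusted p = 0.09997 to 0.113). The rise with both drugs lost its call without DMSO replicate 1 (adjusted p = 0.0505) and became -0.27 (adjusted p = 0.159) with equal sums.

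PRDX1 (chr1:45510914-45542732, minus strand) encodes the abundant cytosolic peroxiredoxin that removes hydrogen peroxide with electrons from thioredoxin. It was lower with NSM and, except with equal sums, higher with the pair. The values were 4853, 4652 and 4528 normalized counts in DMSO, 4594, 4728 and 5029 in DSF, 2279, 2108 and 1664 in NSM, and 7628, 7523 and 6919.6 in DSF+NSM. The NSM libraries were the lowest and the DSF+NSM libraries the highest, with none between them and the overlapping DMSO and DSF values. PRDX1 fell by 1.22 ± 0.12 on the log2 scale (adjusted p = 8.27e-06) with NSM, changed by 0.03 ± 0.12 (adjusted p = 0.887) with DSF, and rose by 0.65 ± 0.12 (adjusted p = 0.000719) with both, where equal sums gave -0.13 (adjusted p = 0.349). Against NSM alone the pair was higher by 1.88 ± 0.12 (adjusted p = 4.55e-07), a 3.67-fold difference, and by 1.36 with equal sums. PRDX1 shares 501 exon bases with MMACHC on the opposite strand. NQO1 shares 575 with a long noncoding RNA gene on the opposite strand. GCLC shares 305 with such a gene on the opposite strand and 529 with another on the same strand. NFE2L2 shares a further 2037 with one on the same strand, and 190 with one and 11 with AGPS on the opposite strand.

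SRXN1 (chr20:646615-653200, minus strand) encodes sulfiredoxin, which repairs peroxiredoxins whose active cysteine has been over-oxidized. It held 548, 581 and 602 normalized counts in DMSO, 1393, 1379 and 1002 in DSF, 693, 744 and 499 in NSM, and 4390.3, 4588 and 4642 in DSF+NSM. All DSF libraries lay above DMSO, the NSM libraries overlapped DMSO, and the DSF+NSM libraries stood far above every other library. SRXN1 rose by 1.11 ± 0.17 (adjusted p = 0.00096) with DSF and by 2.97 ± 0.17 (adjusted p = 5.21e-08) with DSF+NSM, a 7.86-fold difference and the largest among the members, at rank 505 of 13502 genes. The rise with the pair was 2.19 with equal sums. With NSM the change was 0.14 ± 0.17 (adjusted p = 0.509), and without NSM replicate 3 it was 0.32 (adjusted p = 0.0407). Most of the SRXN1 exon sequence, 2292 of 2528 bases, overlaps a protein-coding gene without a symbol that runs in the same direction, and how reads there were counted is not given in the sources used here.

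NQO1 (chr16:69706996-69726668, minus strand) encodes the quinone reductase that is widely used as a readout of NRF2 activity. It stood at 201, 233 and 263 normalized counts in DMSO, at 464, 419 and 452 in DSF, at 99.99, 115 and 91.5 in NSM, and at 318, 371 and 261 in DSF+NSM. The single drugs moved it in opposite directions with no overlap with DMSO, and one DSF+NSM library lay inside the DMSO range. NQO1 rose by 0.94 ± 0.17 (adjusted p = 0.0034) with DSF and fell by 1.18 ± 0.17 on the log2 scale (adjusted p = 0.000151) with NSM, a difference of 2.12 ± 0.17 between the drugs. The difference of 0.44 ± 0.17 with both barely passed (adjusted p = 0.0495) and was -0.34 (adjusted p = 0.088) with equal sums. It stayed past the threshold only when DMSO replicate 3, NSM replicate 3 or DSF+NSM replicate 3 was the library left out, and reached an adjusted p of 0.19 without DSF+NSM replicate 2. Against DSF alone the pair was lower, at -0.50 ± 0.17 (adjusted p = 0.0329), a call that ended without any one DSF library, DMSO replicate 2 or DSF+NSM replicate 1 or 3 (adjusted p = 0.0504 to 0.111). With equal sums that difference was -1.19 (adjusted p = 7.5e-05).

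**Figure D2:**
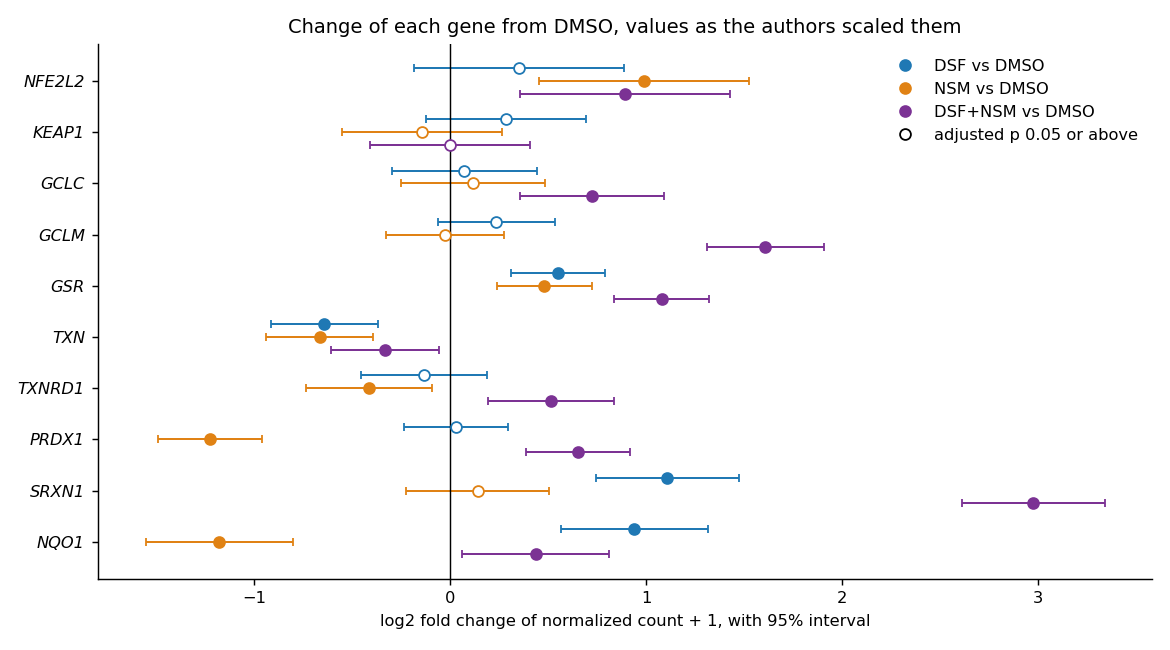
Log2 fold change from DMSO (x axis, with 95% intervals) of each gene (y axis) for DSF, NSM and DSF+NSM, in the authors' scaling; filled points pass an adjusted p of 0.05. SRXN1 extends to 2.97 with both drugs, NQO1 lies on opposite sides of 0 with DSF (0.94) and NSM (-1.18), and with equal sums the DSF+NSM points of GCLC, NQO1, TXNRD1 and PRDX1 would lie just below 0.

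Adding NSM to DSF raised 6 members, where 21.7% of all genes rose, and lowered NQO1, as it did 21.4% of all genes. In total 7 of 10 passed, against 43.1% of all genes, and for 9 the groups did not overlap, against 62.4%. The rises were 1.87 ± 0.17 for SRXN1 (adjusted p = 5.7e-06) and 1.37 ± 0.14 for GCLM (adjusted p = 1.28e-05), with 0.53 to 0.65 for GSR, PRDX1, GCLC and TXNRD1, where equal sums gave -0.16 to -0.04. With equal sums SRXN1 at 1.18 and GCLM at 0.69 were still called higher. Adding DSF to NSM raised 7 members, where 20.3% of all genes rose and 38.6% passed: SRXN1 by 2.83 ± 0.17, PRDX1 by 1.88 ± 0.12, GCLM by 1.63 ± 0.14, NQO1 by 1.61 ± 0.17, TXNRD1 by 0.93 ± 0.15, GCLC by 0.61 ± 0.17 and GSR by 0.60 ± 0.11. Under equal sums the first 5 kept their direction and call, while GCLC at 0.09 and GSR at 0.08 did not pass. In that scaling 54.6% of all genes were called, and of those called 17.8% were higher. The groups did not overlap for 8 members, against 41.5% of all genes. Without NSM replicate 3, TXN was also past the threshold, at 0.31 (adjusted p = 0.0195) against DSF and 0.37 (adjusted p = 0.0165) against NSM, but at -0.38 and -0.18 with equal sums, and against DSF so were NFE2L2 at 0.54 (adjusted p = 0.00377), or -0.15 with equal sums, and KEAP1 at -0.29 (adjusted p = 0.00808). That fit called 60.1% of all genes against DSF and 49.0% against NSM, in place of 43.1% and 38.6%. TXN also passed in both comparisons without DSF replicate 3 and with library weights. NFE2L2 and KEAP1 against DSF also passed with library weights and with only the groups compared. Library weights called 67.5% of all genes against DSF and 72.4% against NSM. DSF and NSM taken alone differed for 3 members, against 44.4% of all genes, and in each of NQO1 (2.12), PRDX1 (1.26) and SRXN1 (0.97) the DSF libraries were higher, as for 23.4% of all genes. The groups did not overlap for 6 members, against 54.8%. The other 7 did not pass, and the interval of the difference was -0.25 to 0.30 for TXN and -0.41 to 0.33 for GCLC. NFE2L2, lower in DSF at -0.64 (adjusted p = 0.0526), passed with the replicate block (adjusted p = 0.0234), with median-of-ratios scaling (adjusted p = 0.0495), with library weights (-0.27) and without NSM replicate 1 or 2 or DSF+NSM replicate 2 or 3 (adjusted p = 0.0271 to 0.0474), and was -0.31 (adjusted p = 0.113) without NSM replicate 3. KEAP1, at 0.43 (adjusted p = 0.0799), passed with equal sums (0.60), equal upper quartiles (0.59), library weights (0.22) and without NSM replicate 1 (0.61), and was 0.16 (adjusted p = 0.175) without NSM replicate 3. GCLM at 0.26 and TXNRD1 at 0.28 passed with equal sums (0.43 and 0.45), equal upper quartiles (0.42 and 0.43) and library weights (0.41 and 0.36), and TXNRD1 also without NSM replicate 3 (0.42). GSR passed with library weights only (0.14).

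The combined change was also set against the sum of the single-drug changes. This difference passed for 5 members, against 26.1% of all genes, and was positive in all 5, where 12.1% of all genes were. PRDX1 changed by 0.65 with both drugs while its single-drug changes sum to -1.19, a difference of 1.85 ± 0.17 (adjusted p = 4.39e-05). SRXN1 exceeded its sum of 1.25 by 1.73 ± 0.24 (adjusted p = 0.000346), and GCLM its sum of 0.21 by 1.40 ± 0.19 (adjusted p = 0.000378). TXNRD1, with a sum of -0.55, and TXN, with a sum of -1.30, ended 1.06 ± 0.21 (adjusted p = 0.00297) and 0.97 ± 0.18 (adjusted p = 0.00198) above those sums. GSR was different, since its change of 1.08 was within 0.05 ± 0.16 of its sum of 1.03 (95% interval -0.29 to 0.39). NQO1 at 0.67 ± 0.24 (adjusted p = 0.061), GCLC at 0.53 ± 0.24 (adjusted p = 0.122), NFE2L2 at -0.45 ± 0.35 (adjusted p = 0.374) and KEAP1 at -0.14 ± 0.27 (adjusted p = 0.731) did not pass. Under equal sums the same 5 members passed, at 0.56 to 1.43, where 35.3% of all genes were called and 19.1% of those called were higher. Without NSM replicate 3 the count was 8, where 45.7% of all genes passed, with GCLC at 0.72 and NQO1 at 0.60 added on the positive side and KEAP1 at -0.42 on the negative side. NQO1 also passed with median-of-ratios scaling (0.70), equal upper quartiles (0.83) and without DSF+NSM replicate 3 (0.81), and GCLC with equal upper quartiles (0.70). Library weights, which called 66.2% of all genes, added NQO1 (0.59), GCLC (0.58), NFE2L2 (-0.28) and KEAP1 (-0.38).

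**Figure D3:**
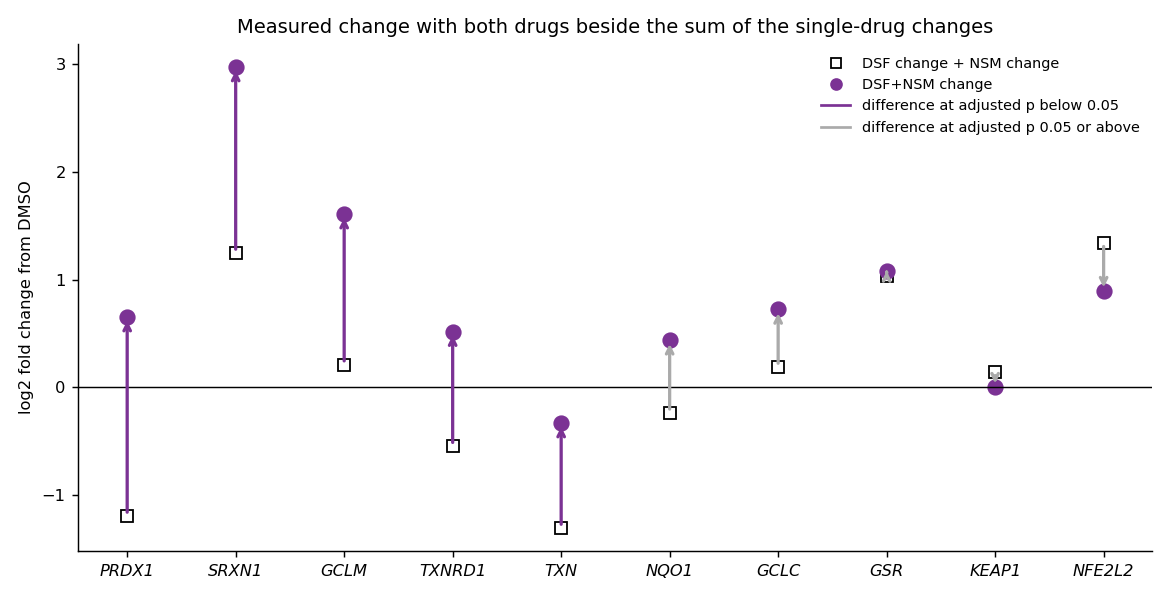
Log2 fold change from DMSO (y axis) measured with both drugs (filled circles) beside the sum of the DSF and NSM changes (open squares) for each gene (x axis); arrows join them and are purple where the difference passes an adjusted p of 0.05. The longest arrows belong to PRDX1 (1.85) and SRXN1 (1.73), and the GSR points nearly coincide (0.05); with equal sums the GSR difference is -0.37.

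HMOX1, the heme oxygenase gene that NRF2 activates and BACH1 represses, averaged 9.61 ± 1.24 normalized counts in DMSO and 13.9 ± 4.09 in NSM, against 12357 ± 4559.7 in DSF and 125159 ± 8303 in DSF+NSM (SD, n = 3). It rose by 10.12 ± 0.26 with DSF and by 13.53 ± 0.26 with both, while 0.47 ± 0.26 with NSM did not pass (adjusted p = 0.151). Of 34 tested genes in a list of other NRF2 targets, 13 rose and none fell with DSF, or 38.2% against 11.9% of all genes rising (with equal sums 1 fell). With NSM 14 rose and 6 fell, that is 58.8% called against 49.1% of all genes and 41.2% rising against 25.4%. With DSF+NSM 23 rose and 4 fell, that is 67.6% rising against 28.3% of all genes. With equal sums 15 rose and 9 fell, where 67.5% of all genes were called and 16.7% of those called rose. FTH1, the ferritin heavy chain that stores iron, rose by 3.34 ± 0.15, 3.41 ± 0.15 and 5.61 ± 0.15 with DSF, NSM and both. AKR1C1, an aldo-keto reductase, rose from 83.1 ± 14.9 in DMSO to 1139 ± 390.5 with NSM, by 3.71 ± 0.25 (adjusted p = 4.92e-07), and by 2.41 ± 0.25 with DSF and 4.89 ± 0.25 with both. Among the genes that fell were the efflux pumps ABCC4, by 1.86 ± 0.24 on the log2 scale with NSM and 1.50 ± 0.24 with both, and ABCC1, by 0.87 ± 0.13 with both. The carbonyl reductase gene CBR1 fell by 1.04 ± 0.17 with NSM. The median change of the list was 0.39, 0.35 and 1.18 with DSF, NSM and both, beside 0.05, 0.01 and 0.03 over all genes.

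The other glutathione genes moved both ways. Of 28 tested, 7 rose and 4 fell with DSF, 6 rose and 5 fell with NSM, and 8 rose and 6 fell with DSF+NSM, so that 39.3%, 39.3% and 14 of 28 were called, beside 17.8%, 49.1% and 52.8% of all genes. The median changes were 0.33, -0.10 and 0.19. With equal sums the last split was 2 rising and 12 falling, where 67.5% of all genes were called and 16.7% of those called rose. CHAC1, which cleaves glutathione, averaged 34.0 ± 5.09 in DMSO and rose by 2.34 ± 0.27, 2.44 ± 0.27 and 2.82 ± 0.27 with DSF, NSM and both. The other enzyme of that kind, CHAC2, fell by 1.18 ± 0.37, 2.63 ± 0.37 and 1.78 ± 0.37 on the log2 scale in the same order, and its call with DSF (adjusted p = 0.0442) ended without any one DMSO or DSF library, NSM replicate 2 or DSF+NSM replicate 2. SLC3A2 and SLC7A11 encode the chains of the cystine importer that feeds glutathione synthesis. SLC3A2 rose by 1.13 ± 0.22, 1.70 ± 0.22 and 1.66 ± 0.22, and SLC7A11 by 0.55 ± 0.14, 0.80 ± 0.14 and 0.83 ± 0.14, the last being 0.04 with equal sums. The SLC7A11 call with DSF (adjusted p = 0.0172) ended without any one DMSO library or without DSF replicate 1 or 2 (adjusted p = 0.0553 to 0.0767). GLO1, the glutathione-dependent enzyme that detoxifies methylglyoxal, fell by 0.99 ± 0.20, 0.91 ± 0.20 and 0.69 ± 0.20 on the log2 scale. The count with DSF was 11, but 3 to 5 when DMSO replicate 1, 2 or 3 or DSF replicate 1 or 2 was left out, 7 without DSF replicate 3 and 17 without NSM replicate 3, and the count with NSM was 18 without NSM replicate 3. The same fits called 6.75% to 10.3%, 13.1% and 41.1% of all genes with DSF, in place of 17.8%. With NSM the last fit called 59.8% of all genes, in place of 49.1%.

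Among the other thioredoxin, peroxiredoxin and glutaredoxin genes, more fell than rose. Of 25 tested, 2 rose and 7 fell with DSF, 3 rose and 10 fell with NSM, and 5 rose and 8 fell with DSF+NSM, or 36.0%, 52.0% and 52.0% called beside 17.8%, 49.1% and 52.8% of all genes. Falling were 7, 10 and 8 of 25, beside 5.95%, 23.7% and 24.5% of all genes. Rising were 2, 3 and 5 of 25, beside 11.9%, 25.4% and 28.3%. With DSF+NSM the share called was thus close to that of all genes. With equal sums 2 rose and 21 fell with the pair, where 67.5% of all genes were called and 16.7% of those called rose. PRDX4, the peroxiredoxin of the secretory pathway, averaged 1126 ± 82.7, 654 ± 60.7, 326 ± 23.9 and 230.5 ± 24.7 normalized counts in the order DMSO, DSF, NSM, DSF+NSM. It fell by 2.29 ± 0.14 on the log2 scale with both drugs (adjusted p = 9.8e-08), where PRDX1 changed by 0.65, or by -0.13 with equal sums. TXNRD3, a thioredoxin-glutathione reductase, fell by 1.77 ± 0.21 with both, and TXNDC17 by 1.45 ± 0.23 with NSM. SESN2, a stress-induced sestrin, rose by 2.06 ± 0.24, 2.91 ± 0.24 and 4.66 ± 0.24 with DSF, NSM and both. TXNL1, a thioredoxin-like protein of the proteasome, rose by 1.46 ± 0.21 with both, and the glutaredoxin gene GLRX by 1.00 ± 0.11 with NSM. The mitochondrial glutaredoxin gene GLRX2 fell by 1.46 ± 0.36 on the log2 scale with DSF (adjusted p = 0.0168), a call that ended without DMSO or DSF replicate 1 or 2. TXNDC9 fell by 0.82 ± 0.26 with DSF (adjusted p = 0.0472), and only leaving out NSM replicate 1 or 3 kept that call. TXNIP, the inhibitor of thioredoxin, was highest in DSF. It averaged 6979 ± 775 in DSF but 2092 ± 28.5 in DMSO, 2391 ± 267 in NSM and 1511 ± 159 with both, with changes of 1.73 ± 0.13 (adjusted p = 3.71e-06), 0.19 ± 0.13 (adjusted p = 0.241) and -0.47 ± 0.13 (adjusted p = 0.00719). The count with DSF was 9, but 4 to 5 without any one DMSO library or without DSF replicate 1 or 2, and the count with DSF+NSM was 21 without NSM replicate 3. Over all genes the share called was 6.75% to 10.3% in those DSF fits, in place of 17.8%. In the last fit it was 67.7%, in place of 52.8%.

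The partners and regulators of NRF2 also changed. Of 24 tested, 8 rose and 1 fell with DSF, 10 rose and 6 fell with NSM, and 11 rose and 5 fell with DSF+NSM. The shares called were 37.5%, 66.7% and 66.7%, beside 17.8%, 49.1% and 52.8% of all genes. Rising were 33.3%, 41.7% and 45.8%, beside 11.9%, 25.4% and 28.3%, and falling 4.17%, 25.0% and 20.8%, beside 5.95%, 23.7% and 24.5%. With equal sums 5 rose and 11 fell with the pair, where 67.5% of all genes were called and 16.7% of those called rose. The median changes were 0.09, 0.33 and 0.37. The small MAF genes, whose proteins pair with NRF2 on AREs, were among those that rose. MAFF averaged 54.6 ± 4.94 in DMSO and rose by 2.28 ± 0.20, 2.83 ± 0.20 and 5.31 ± 0.20 with DSF, NSM and both, and MAFG by 0.95 ± 0.19, 1.59 ± 0.19 and 2.42 ± 0.19. SQSTM1, which encodes p62, a binding partner of KEAP1 in autophagy, averaged 2114 ± 35.5 in DMSO and 49743 ± 2456 in DSF+NSM. It rose by 2.38 ± 0.20, 2.12 ± 0.20 and 4.55 ± 0.20. BACH1, the repressor that competes with NRF2 for AREs, did not pass, at 0.26 ± 0.32 (adjusted p = 0.624), 0.24 ± 0.32 (adjusted p = 0.557) and 0.33 ± 0.32 (adjusted p = 0.417), the last of these being -0.45 with equal sums. CUL3, the ligase scaffold that works with KEAP1, fell by 0.96 ± 0.20 on the log2 scale with DSF and by 0.74 ± 0.20 with NSM, and was at 0.14 ± 0.20 with both (adjusted p = 0.591). PALB2, a KEAP1-binding DNA repair protein, fell by 0.89 ± 0.18 with NSM and 1.84 ± 0.18 with both, DPP3, a peptidase that also binds KEAP1, fell by 0.82 ± 0.16 with NSM, and NFE2, a haematopoietic relative of NRF2, fell by 1.41 ± 0.13 with both. The count with DSF was 9, and 14 without NSM replicate 3. For the other NRF2 targets it was 13, and 22 without that library, where 41.1% of all genes were called in place of 17.8%.

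**Figure D4:**
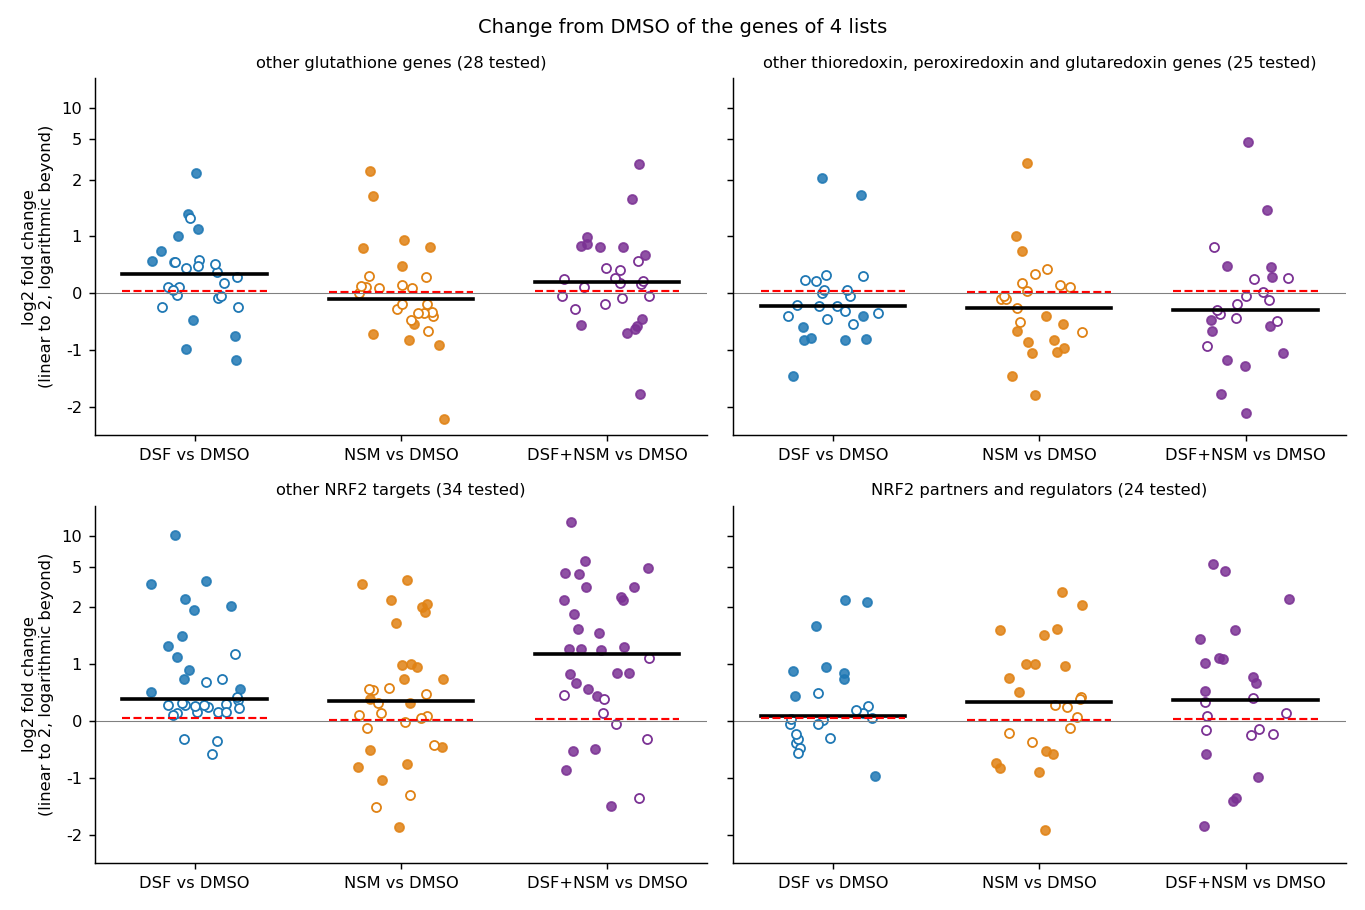
Log2 fold change from DMSO (y axis, linear to 2 and logarithmic beyond) of every tested gene of the 4 lists in the 3 comparisons (x axis); filled points pass an adjusted p of 0.05, black lines are list medians and red dashed lines medians of all genes. The other NRF2 targets have the highest median with DSF+NSM, 1.18, and the thioredoxin list lies below 0 in each comparison (-0.22, -0.26 and -0.30); with equal sums the median of all genes with DSF+NSM moves to -0.75.

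Over the 12 libraries, which share the 4 treatments and the authors' scaling, the members did not vary as one block. The log2 values of GCLM and SRXN1 had a Pearson correlation of 0.956, those of GCLM and GSR 0.860 and those of NQO1 and PRDX1 0.821, whereas TXN and SRXN1 were at -0.08 and NFE2L2 and NQO1 at -0.42. The genes with the pattern most like that of SRXN1 were DNAJB1 (0.995), SERPINH1 (0.992) and BAG3 (0.989), known as chaperone and cochaperone genes. GSR was closest to SQSTM1 (0.984), PRDX1 to VCP (0.987), which encodes the p97 segregase, and GCLM to SOD2 (0.979), the mitochondrial superoxide dismutase. NQO1 was closest to FAM225A (0.985), NFE2L2 to CLDND1 (0.977), KEAP1 to ACTR1B (0.979), TXN to ATP6V0E1 (0.977), GCLC to PLAA (0.963) and TXNRD1 to LGALS8 (0.959). These are correlations over 12 libraries in 4 treatments and describe likeness only.

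The scaling of the DSF+NSM libraries bears on 5 of the 9 members called there. Measured from the median of all genes, which was 0.03 in the authors' scaling and -0.75 with equal sums, the changes with equal sums were 2.94 for SRXN1, 1.58 for GCLM, 1.05 for GSR, 0.86 for NFE2L2, 0.69 for GCLC, 0.62 for PRDX1, 0.48 for TXNRD1, 0.41 for NQO1, -0.03 for KEAP1 and -0.36 for TXN. The scaling moves every gene of a comparison by about the same amount, so that their order is kept by construction, while the place of 0 among them is not. Which of the scalings holds for RNA per cell was not measured in these libraries.

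**Figure D5:**
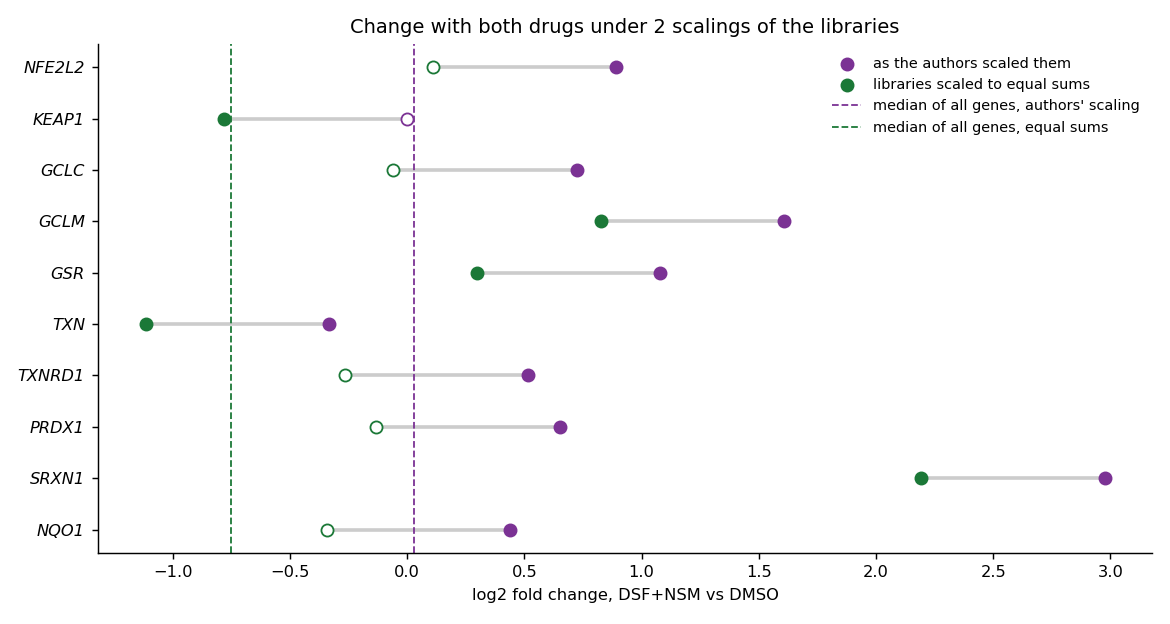
Log2 fold change of DSF+NSM against DMSO (x axis) for each gene (y axis) in the authors' scaling (purple) and with every library scaled to the same sum (green), with the median of all genes dashed; filled points pass an adjusted p of 0.05. SRXN1, GCLM and GSR lie to the right of 0 in both, TXN to the left in both, and the median of all genes moves from 0.03 to -0.75.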

How the data were processed

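Total RNA of SHI-1 cells was made into TruSeq RNA v2 libraries. The deposited values are normalized counts per gene, a signal that the authors obtained by dividing read counts by library factors, over 24 libraries per the file headers, of which 12 were used here. The submitters' processing notes name bcl2fastq 2.19, Trimmomatic, Bowtie2, Picard, featureCounts and DESeq2 with hg38, whereas the supplementary methods name STAR and Salmon with GRCh38. Whole reads could not be recovered, so no count model was used. Genes with a value of at least 10 in at least 3 libraries were tested with limma 3.58.1 (R 4.3.3, trend and robust options) on log2(value + 1), with 4 group means in 1 fit, and Benjamini-Hochberg adjustment at 0.05. The pseudocount understates changes of low genes. The procedure was tested on simulated data. Alternatives changed the scaling, filter, pseudocount, library weights, groups fitted, replicate block and libraries left out. Gene positions and lengths are from GENCODE 44 and promoter windows from RefSeq (both GRCh38). Named were all members, from each list the 2 called genes with the largest rise and the 2 with the largest fall in each comparison with DMSO at a mean of at least 50, and HMOX1, SLC7A11, TXNIP, SQSTM1, MAFG and BACH1, while 1 further named gene is not reported here. The members and lists were chosen with earlier results of these data known. Estimated depth limits precision. Intervals are for differences between means of 3 libraries, with 1 spread per gene estimated over all 12 libraries. The same SE therefore stands for groups of unlike spread.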

Additional observations from a re-analysis of the deposited data

Results flagged for a closer look

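For 5 of the 10 genes the response to NSM was not the same in cells given DSF as in cells not given it, by the interaction term of the fit (limma, Benjamini-Hochberg adjusted p below 0.05). Over all genes 26.1% passed that test, and 12.1% passed on the positive side. The change with NSM in cells given DSF minus that in cells without DSF was 1.85 for PRDX1, 1.73 for SRXN1, 1.40 for GCLM, 1.06 for TXNRD1 and 0.97 for TXN on the log2 scale. PRDX1 and TXNRD1 fell with NSM alone, by 1.22 and 0.41 on the log2 scale, and rose when NSM was added to DSF, by 0.62 and 0.65, where equal sums gave -0.07 and -0.04. The fall of TXNRD1 with NSM alone kept its call in 17 of 22 alternatives (adjusted p up to 0.113). TXN fell by 0.66 with NSM alone, and its difference of 0.31 when NSM was added to DSF did not pass (adjusted p = 0.0662).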

How the results depend on the processing

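Of 70 member results (10 genes in 7 comparisons), all 70 kept their direction and their side of the threshold with a value of 10 required in every library and with pseudocounts of 0.1 or 10, 69 without a filter, 64 with median-of-ratios scaling, 56 with equal upper quartiles, 44 with library weights and 43 with equal sums. With only the groups compared it was 53 of 60, as the interaction was not run there. With 1 library left out, 776 of 840 held. The causes were not tested. Depth per library is known only as an estimate.

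Counts of called members moved with library weights to 8 with DSF, 8 for DSF against NSM and 9 for the interaction, and with equal sums to 5 with DSF+NSM and 6 for DSF against NSM, also 6 with equal upper quartiles. With library weights the glutathione genes gave 20 with DSF and 24 with NSM, the thioredoxin genes 19, 21 and 22 with DSF, NSM and both, the other NRF2 targets 27 and 32 with DSF and NSM, and the partners 18 with DSF. With only the groups compared the counts with DSF were 21, 19, 27 and 17 in that order, and with equal sums the thioredoxin genes gave 23 with both. With 1 library left out, members ranged from 3 to 5 for DSF against NSM (5 without NSM replicate 1) and 5 to 8 for the interaction (8 without NSM replicate 3). Members also ranged from 6 to 9 with DSF+NSM and from 6 to 10 for DSF+NSM against DSF. In the latter comparison 34.5% to 60.1% of all genes were called. Over all genes, library weights called 60.5% with DSF, 82.3% with NSM, 75.0% with both, 76.8% for DSF against NSM and 66.2% for the interaction, and only the groups compared 54.0% with DSF. Equal sums called 67.5% with both and 44.5% for DSF against NSM, equal upper quartiles 43.996% there, and leaving out NSM replicate 3 gave 41.1% with DSF, 59.8% with NSM, 67.7% with both and 45.7% for the interaction. Without NSM replicate 1, 47.1% were called for DSF against NSM. The glutathione genes ranged from 3 to 17 with DSF and 9 to 18 with NSM, the thioredoxin genes from 4 to 13 with DSF and 10 to 21 with both, the other NRF2 targets from 9 to 22 and the partners from 8 to 14 with DSF. Over the same left-out fits the share of all genes called ran from 6.75% to 41.1% with DSF. It ran from 40.1% to 59.8% with NSM and from 44.3% to 67.7% with both.

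Directions turned with equal sums for GCLC (-0.024) and PRDX1 (-0.065) with DSF, for GCLC (-0.15), SRXN1 (-0.13), TXNIP (-0.082) and BACH1 (-0.025) with NSM, and for KEAP1 (-0.78), GCLC (-0.060), NQO1 (-0.34), TXNRD1 (-0.27), PRDX1 (-0.13) and BACH1 (-0.45) with both. Against DSF they turned for NFE2L2 (-0.15), GCLC (-0.036), TXNRD1 (-0.035), TXN (-0.38), GSR (-0.16) and PRDX1 (-0.066), against NSM for KEAP1 (-0.37) and TXN (-0.18), for DSF against NSM for GCLC (0.13), and in the interaction for GSR (-0.37). With equal upper quartiles GCLC (-0.043) and SRXN1 (-0.018) turned with NSM, KEAP1 (-0.00052) with both, NFE2L2 (0.062) for both against NSM, GCLC (0.11) for DSF against NSM and KEAP1 (0.021) in the interaction. With library weights KEAP1 (0.070), GCLC (-0.0082) and BACH1 (-0.26) turned with NSM, KEAP1 (-0.023) with both, NFE2L2 (0.11) and KEAP1 (-0.093) for both against NSM, and GCLC (0.092) and TXN (-0.047) for DSF against NSM. Median-of-ratios scaling turned PRDX1 (-0.012) with DSF, KEAP1 (-0.018) with both and TXN (-0.012) for DSF against NSM. None of these was past the threshold in both fits.

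With 1 library left out, values that crossed 0 ranged from -0.0047 to 0.061 for PRDX1 with DSF, from -0.32 to 0.13 for KEAP1, -0.074 to 0.045 for GCLM, -0.074 to 0.24 for GCLC and -0.18 to 0.49 for BACH1 with NSM, and from -0.045 to 0.046 for KEAP1 with both. For both against NSM they ranged from -0.29 to 0.23 for NFE2L2 and -0.13 to 0.32 for KEAP1, for DSF against NSM from -0.16 to 0.15 for GCLC, -0.086 to 0.099 for TXN and -0.0058 to 0.12 for GSR, and in the interaction from -0.42 to 0.034 for KEAP1 and -0.0042 to 0.12 for GSR.

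The labels give every group replicates 1 to 3. Of 18 same-numbered pairs of libraries, 2 had deviations that correlated above 0.1 (range -0.064 to 0.278), and 7 of 12 libraries correlated best with their own number. These values do not decide whether the numbers pair the libraries. The main fit did not pair them, and a fit with a replicate block was set beside it. With a replicate block, 66 of 70 member results held, and the DSF+NSM calls of NQO1 (adjusted p = 0.0608) and TXN (adjusted p = 0.0621) ended, while NFE2L2 passed for DSF+NSM against DSF (0.54, adjusted p = 0.0477) and for DSF against NSM (-0.64, adjusted p = 0.0234). The block called 2520 genes with DSF and 7279 with DSF+NSM, against 2405 and 7125 without it.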
